A study of Homo sapiens with 8 samples.

Results

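The human miRNAs numbered from 4000 up to, but not including, 5000 were among the later entries of the miRNA registry, and 109 of them were measurable in PC-3 cells. The members were selected on detection: a miRNA of this range, with any letter or arm, was kept when the scanner software called it detected on both arrays of at least 1 of 4 treatments, and miR-4716-3p was left out beforehand. The array carried 1887 human miRNAs, of which 499 belonged to the range after that omission, and 480 human miRNAs of all numbers passed the same detection rule and were tested.

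PC-3 is an established cell line of a human prostate cancer that grows without androgen. The cells were treated for 24 h with DMSO (the solvent), with 60 µM luteolin, a plant flavonoid, with 60 µM gefitinib, an inhibitor of the EGF receptor kinase, or with luteolin and gefitinib together at 60 µM each. Total RNA was hybridized to 8 one-color arrays, 2 per treatment, which the labels call biological replicates of this single cell line. All 3 drug groups were compared with the same DMSO arrays. Because RNA of whole cultures was measured, a smaller number of cells of one state and less RNA per cell cannot be told apart.

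A mature miRNA is a short RNA that guides Argonaute proteins to messenger RNAs, mainly by pairing through its bases 2 to 8, the seed. Mature miRNAs are cut from hairpins whose arms give the 5p and 3p products, and many hairpins lie within introns of protein-coding genes and share their promoters. Most miRNAs with low numbers were found by cloning and are conserved, whereas many with high numbers were entered from deep sequencing, are not conserved and have little functional evidence, and some entries match fragments of tRNA or rRNA.

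The sequences of the members that were called in a comparison are shown first, because the results below turn on them. They were read from RefSeq (GRCh38.p14), which held 94 of the 109 members, and run 5′ to 3′ with the seed in capitals. The members that were higher with gefitinib, with both drugs, or with each were these.
miR-4516: gGGAGAAGggucggggc
miR-4443: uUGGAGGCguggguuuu
miR-4281: gGGUCCCGgggagggggg
miR-4687-3p: uGGCUGUUggagggggcaggc
miR-4465: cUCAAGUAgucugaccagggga
miR-4466: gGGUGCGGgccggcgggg
miR-4746-3p: aGCGGUGCuccugcgggccga
miR-4651: cGGGGUGGgugaggucgggc
miR-4534: gGAUGGAGgaggggucu
miR-4739: aAGGGAGGaggagcggaggggcccu
miR-4745-5p: uGAGUGGGgcucccgggacggcg
miR-4689: uUGAGGAGacauggugggggcc
miR-4707-5p: gCCCCGGCgcgggcggguucugg

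The members that were lower were these.
miR-4482-3p: uUUCUAUUucucaguggggcuc
miR-4451: uGGUAGAGcugaggaca
miR-4710: gGGUGAGGgcaggugguu

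No sequence is shown for miR-4496, which was also called. The other members without an entry in that table were miR-4286, miR-4417, miR-4419a, miR-4433-3p, miR-4433-5p, miR-4459, miR-4470, miR-4485, miR-4487, miR-4532, miR-4646-5p, miR-4659a-3p, miR-4697-5p and miR-4800-5p.

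Some of these miRNAs lie within genes that are well known for other reasons. In GRCh38.p14, miR-4516 is encoded at chr16:2133120-2133136 on the plus strand, opposite to PKD1, the polycystin-1 gene. miR-4687-3p is at chr11:3856113-3856133, on the same strand as STIM1, the calcium sensor of the endoplasmic reticulum. miR-4746-3p is at chr19:4446021-4446041 within CHAF1A, a subunit of the chromatin assembly factor, and miR-4745-5p is at chr19:804941-804963 within PTBP1, a splicing regulator. miR-4534 is at chr22:37988829-37988845 within POLR2F, an RNA polymerase subunit. miR-4443 at chr3:48196572-48196588 and miR-4689 at chr1:5862711-5862732 lay in no other gene of the table. Of the 94 members with a position, 47 lay in a gene of the same strand, 14 in a gene of the opposite strand with none given on their own, and 19 in no other gene. The rest overlapped a gene whose strand was not given, and whether a position was exonic or intronic was not given in the table used here.

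Base composition of the members is described here beside that of other miRNAs of the array, without a test. The median G plus C content was 64.9% in the 94 members with a sequence (range 30.4% to 94.7%), against 50% in the 349 miRNAs of the same number range that were not kept and 50% in the other 301 miRNAs tested that had a sequence. A content of at least 70% was found in 31 members (33.0%), in 8.31% of the range that was not kept, in 11.0% of the other miRNAs tested and in 8.43% of all miRNAs on the array. A run GGGG, searched on the given strand only, was present in 28 members (29.8%), in 7.74% of the range that was not kept, in 15.0% of the other miRNAs tested and in 9.44% of all miRNAs on the array. Of the 301 other miRNAs tested, 203 were numbered below 1000. Among those, 8 (3.94%) had a content of at least 70% and 15 (7.39%) a run GGGG. The remaining miRNAs tested, mostly of later numbers, therefore had shares above 11.0% and 15.0%. Neither trait is called particular to the members. Mature sequences of at most 18 bases made up 27.7% of the members, 16.9% of the range that was not kept and 3.99% of the other miRNAs tested.

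The arrays differed in how many miRNAs they detected. All 8 came from 1 slide and 1 scan, no spot was saturated, each miRNA had 30 spots, and between 395 and 481 human miRNAs were detected per array, fewest on replicate 2 of luteolin plus gefitinib. Among markers of epithelial cells, miR-200a-3p, miR-200b-3p and miR-429 were detected on all 8 arrays, whereas miR-200c-3p, miR-141-3p and miR-203a were detected on none. miR-205-5p, the last of the 7, was detected on 6 arrays. Its mean signal was 3.55 under DMSO, 3.35 under luteolin, 1.55 under gefitinib and 2.51 under the combination, and its part in the results was not tested. The arrays without detection belonged to gefitinib and to the combination. Their signals near 0 (lowest 0.0845, beside a highest of 5.37 on any array) enter these means, so the means do not show a fall on each array. Of 6 blood markers 0 were seen on all arrays and 5 on none, and markers of endothelium, stroma, muscle and liver were not detected on any array. The neuronal marker miR-9-5p was detected on all 8 arrays at 7.58 to 14.9, and miR-124-3p on none.

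Detection is what selected the members, so its pattern is given as a description. The rule kept 21.8% of the range, 371 (26.7%) of the other 1388 human miRNAs and 248 (30.7%) of the 809 numbered below 1000. Of the members, 79 were detected on all 8 arrays, and 13, 9 and 8 members were detected on both arrays of exactly 1, 2 and 3 treatments. Of the 390 miRNAs of the range that were not kept, 379 were detected on no array.

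Replicate 1 carried more detected members than replicate 2 in every treatment but gefitinib. The number of members detected was 104 and 90 on the DMSO arrays, 108 and 86 with luteolin, 108 and 108 with gefitinib, and 100 and 89 with both drugs. With luteolin, 22 members were seen on replicate 1 alone and 0 on replicate 2 alone, and with DMSO the same counts were 14 and 0. The 8 members that were detected on neither array of luteolin plus gefitinib outnumbered the 5 in DMSO, the 1 in luteolin and the 0 in gefitinib.

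**Figure D1:**
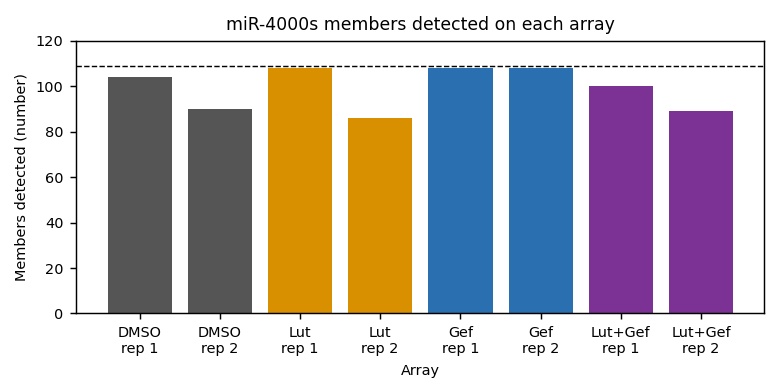
Number of the 109 members (dashed line) detected on each of the 8 arrays, with 1 bar per array and 1 color per treatment. The gefitinib arrays hold 108 each, and replicate 2 holds fewer than replicate 1 in the other treatments.

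Signals below are the total gene signal after scaling each array to a common 75th percentile, in arbitrary units of fluorescence, and a miRNA's values can be compared between arrays but not with those of another probe. The miRNAs at the edge of the rule were dim. Just inside it, miR-4707-5p was detected only on the gefitinib arrays, at 1.41 and 1.30. miR-4767 had 1.37 on replicate 1 of luteolin and 1.23 and 1.20 with gefitinib, and miR-4665-5p had 1.56 on replicate 1 of luteolin and 1.20 and 1.40 with gefitinib. Just outside it, miR-4522 reached 6.89 and 6.04 on replicate 1 of DMSO and of luteolin, 2.90 on replicate 2 of gefitinib and 2.65 on replicate 1 of both drugs. miR-4776-5p reached 3.12, 2.82 and 2.39 on replicate 1 of DMSO, replicate 1 of luteolin and replicate 2 of gefitinib, and miR-4636 had 1.69 and 2.30 on replicate 1 of DMSO and of luteolin. These 3 miRNAs were left out because no treatment had them on both arrays.

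Most members gave little signal. The geometric mean over the 8 arrays was below 10 in 64 members, from 10 to 100 in 33, from 100 to 1000 in 9 and above 1000 in 3. miR-4454, whose sequence matches the end of a tRNA, had a lowest signal of 101500 and a highest of 146900. miR-4284 ranged from 5944 to 8429, and miR-4286 from 2070 to 2619. None of these 3 was called in any comparison, and miR-4454, with the largest change of the 3 with gefitinib, was at 136000 and 146900 with DMSO and at 102900 and 101500 with gefitinib (log2 fold change -0.47 ± 0.17 SE, limma adjusted p = 0.174).

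Of the other members with the highest means, miR-4530, miR-4299 and miR-4505 were not called in any comparison. miR-4530 was at 156 and 152 with DMSO, 201 and 167 with luteolin, 145 and 155 with gefitinib and 159 and 159 with both drugs. miR-4299 fell within 93.1 to 132 and miR-4505 within 84.8 to 142 over all 8 arrays. miR-4485, which matches a mitochondrial ribosomal RNA, was at 106 and 68.3 with DMSO, 107 and 50.4 with luteolin, 56.0 and 66.7 with gefitinib and 75.9 and 71.0 with both drugs. Its DMSO replicates were farther apart than its treatment means, and it was not called. miR-4459 and miR-4428, also among the 12 members with the highest means and not called in any comparison, had wide replicate gaps with DMSO and luteolin. miR-4459 was at 762 and 387 with DMSO, 702 and 285 with luteolin, 468 and 529 with gefitinib and 512 and 414 with both drugs. miR-4428 was at 226 and 124, 208 and 77.3, 98.0 and 97.5, and 106 and 69.7 in the same order.

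The members varied more between replicates than the other miRNAs did, chiefly with luteolin. Among the 79 members detected on all arrays, 17 (21.5%) differed by more than 2-fold between the luteolin replicates, against 24 (8.39%) of the 286 other miRNAs detected on all arrays. With DMSO the shares were 7.59% and 5.24%, with both drugs 7.59% and 2.10%, and with gefitinib 1.27% and 0.35%. These shares are descriptions, since the miRNAs of an array are not independent samples.

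The gap ran one way in the DMSO and luteolin groups. Replicate 1 was higher in 60 of 79 members with DMSO and in 68 of 79 with luteolin, with a median log2 difference of 0.20 and 0.40, whereas the median of the other miRNAs was -0.17 and -0.14. With gefitinib and with both drugs it was higher in 35 and 36 of the 79, with medians of -0.03 and -0.02. The large gaps of the other miRNAs ran the same way as in the members. Of their gaps over 2-fold, replicate 1 was higher in 11 of 15 with DMSO and in 21 of 24 with luteolin. The 5 members with more than a 2-fold gap in both DMSO and luteolin were miR-4313, miR-4417, miR-4656, miR-4697-5p and miR-4758-5p, chosen after their values were seen.

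miR-4313 was at 42.4 and 17.4 with DMSO, 39.8 and 10.0 with luteolin, 10.6 and 16.6 with gefitinib and 20.8 and 11.9 with both drugs. miR-4697-5p was at 26.2 and 11.3, 27.6 and 7.68, 7.07 and 10.2, and 12 and 7.57 in the same order of treatments. Both gefitinib arrays lay below both DMSO arrays for each of these miRNAs, but neither passed the test (miR-4313 log2 fold change -1.04 ± 0.78 SE, limma adjusted p = 0.519). miR-4668-5p behaved differently, with replicate 1 above replicate 2 in every treatment: 9.97 and 7.21 with DMSO, 18.3 and 4.14 with luteolin, 12.8 and 5.31 with gefitinib and 12.4 and 5.08 with both drugs.

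**Figure D2:**
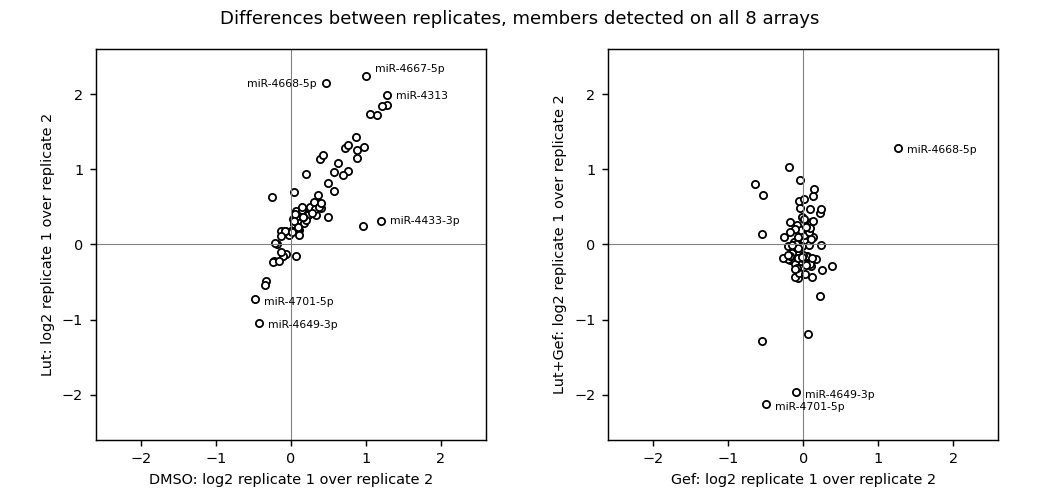
Log2 of replicate 1 over replicate 2 for the 79 members detected on all 8 arrays, with luteolin plotted against DMSO (left) and luteolin plus gefitinib against gefitinib (right); each point is 1 miRNA. Most points on the left lie above 0 on both axes, whereas the points on the right spread around 0.

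**Figure D3:**
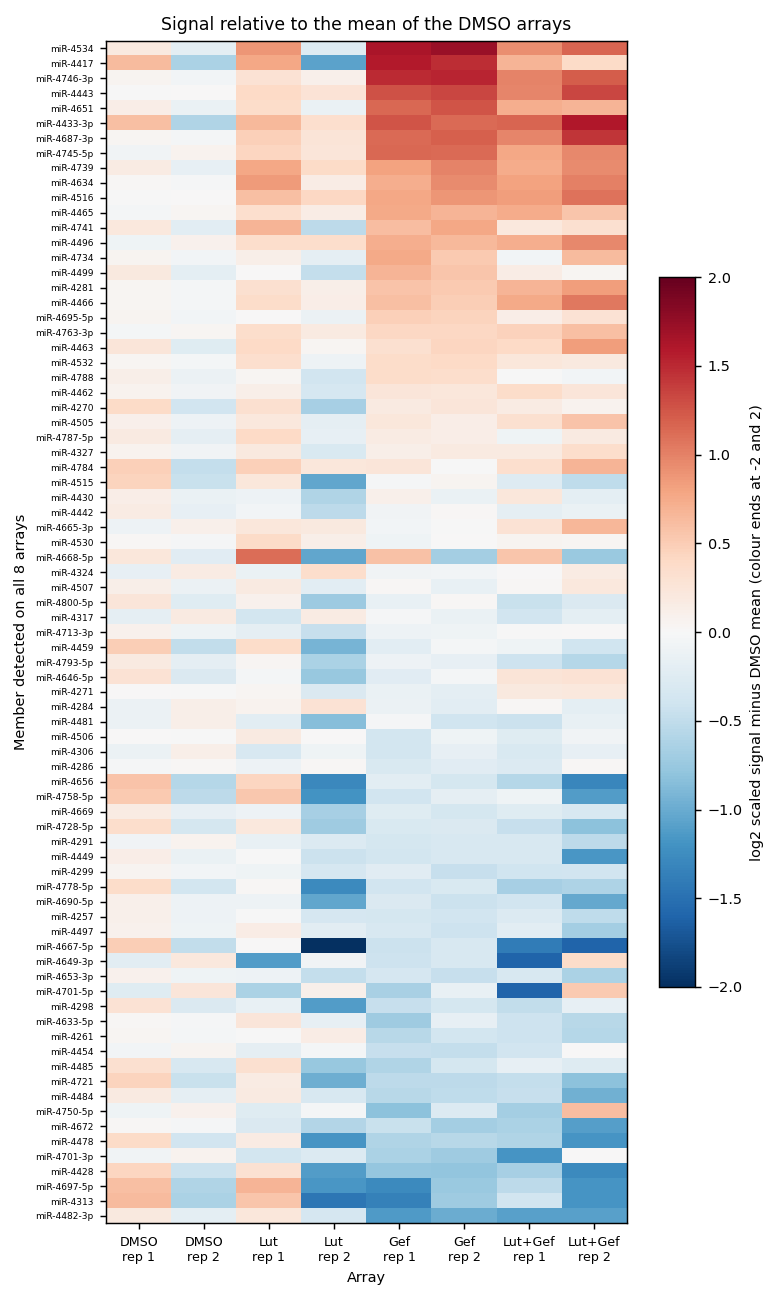
Log2 scaled signal of the 79 members detected on all 8 arrays (rows) minus the mean of the DMSO arrays, for each array (columns), sorted by the change with gefitinib; red is higher and blue lower. The rows at the top are red on both gefitinib arrays and on both arrays of both drugs, and the blue replicate 2 column of luteolin shows the replicate gap.

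To determine which members changed with gefitinib, its arrays were compared with DMSO. Gefitinib raised 12 members and lowered 2 at an adjusted p under 0.05. That is 14 of 109 (12.8%), near the 12.1% of all 480 miRNAs tested that were called, with 7.5% called higher and 4.58% called lower over all of them. Of the 14, 11 were detected on all 8 arrays. miR-4707-5p was kept only through its gefitinib arrays, so that its difference was built into the selection. The call rests on few arrays: 3 members were called without either DMSO array, 2 without either gefitinib array and 8 without either array of both drugs.

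Among the brighter members, miR-4516 rose from 274 and 275 with DMSO to 467 and 506 with gefitinib (log2 fold change 0.82 ± 0.15 SE, limma adjusted p = 0.0288). Its luteolin arrays, at 415 and 366, lay between those groups. miR-4443 was at 123 and 125 with DMSO and at 299.5 and 314 with gefitinib (1.30 ± 0.17, limma adjusted p = 0.00708). miR-4687-3p, encoded within STIM1, was at 78.3 and 74.2 with DMSO and at 166 and 175 with gefitinib (1.16 ± 0.19, limma adjusted p = 0.0195). For each of these miRNAs the groups did not overlap. The gefitinib replicates were closer to each other than those of the other treatments, with a correlation of 0.996 over the 79 members detected on all arrays against 0.972 to 0.987, and with them counted as 1 sample 2 members were called in place of 14.

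Among the dimmer members, miR-4746-3p, encoded within CHAF1A, rose most firmly. Its signal was 14.7 and 13.6 with DMSO, 17.3 and 15.2 with luteolin, 40.0 and 40.8 with gefitinib, and 28 and 32.6 with both drugs, so that both gefitinib arrays stood above all others. Its log2 fold change with gefitinib was 1.51 ± 0.15 SE (limma adjusted p = 0.00401). This call was the only one of the 26 calls of named members that held under all 22 alternative settings, with an adjusted p from 0.000461 to 0.04.

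miR-4745-5p, encoded within PTBP1, was at 5.90 and 6.45 with DMSO and at 13.6 and 13.5 with gefitinib (1.14 ± 0.14, limma adjusted p = 0.00708). miR-4651 was at 10.4 and 8.64 with DMSO and at 21.0 and 22.8 with gefitinib (1.21 ± 0.21, limma adjusted p = 0.0221). miR-4534, encoded within POLR2F, was at 9.45 and 7.21 with DMSO, 15.2 and 6.92 with luteolin and 25.6 and 27.4 with gefitinib (1.68 ± 0.38, limma adjusted p = 0.0469). The gefitinib arrays of all 3 exceeded their DMSO and luteolin arrays.

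miR-4739, miR-4465 and miR-4496 were also called higher and are named here after their values were seen. miR-4465, which has the seed UCAAGUA of miR-26a-5p and miR-26b-5p, was at 60.2 and 63.4 with DMSO and at 105 and 99.4 with gefitinib (log2 fold change 0.72). miR-4739 rose by 0.90 on the log2 scale, from 9.54 and 7.55 to 14.8 and 16.8, with an adjusted p of 0.0499 by limma. miR-4496 rose by 0.69, from 5.06 and 5.75 to 8.92 and 8.46.

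Detected on both gefitinib arrays and on neither DMSO array were miR-4689, miR-4787-3p, miR-4707-5p, miR-4665-5p and miR-4767, and for these only a bound of the change is available. The bound sets the gefitinib mean against the lowest signal detected for any miRNA on each DMSO array. It is a lower limit only if the undetected miRNA lay below that signal, which was not tested. Every fold given as at least a value, here and below, rests on this assumption. miR-4689, at 5.14 and 4.88 with gefitinib, was at least 6.99-fold higher than with DMSO (limma adjusted p = 0.019), and it was kept only through its arrays of gefitinib and of both drugs, so that the selection favored this difference. miR-4787-3p, at 3.45 and 3.36, was at least 4.75-fold higher by its bound but was not called (limma adjusted p = 0.121), with 3.08 on replicate 1 of luteolin. The bounds of miR-4707-5p, miR-4665-5p and miR-4767 were at least 1.89-fold, 1.81-fold and 1.69-fold. miR-4787-3p and these 3 miRNAs were kept only through the gefitinib arrays, so that their difference from DMSO was built into the selection.

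The 2 members that fell with gefitinib were dim. miR-4482-3p was at 5.38 and 4.07 with DMSO, 5.46 and 3.71 with luteolin, 2.13 and 2.36 with gefitinib and 2.21 and 2.21 with both drugs (gefitinib against DMSO -1.06 ± 0.24 SE, limma adjusted p = 0.0469). The arrays with gefitinib, alone or combined, lay below all arrays without it. miR-4451 was at 2.18 and 2.19 with DMSO and at 1.23 and 1.35 with gefitinib (-0.76 ± 0.12, limma adjusted p = 0.019). Calls of raised members with gefitinib were also lost in part of the 22 alternative settings. That of miR-4534 was lost in 10, miR-4651 in 9, miR-4516 in 8, miR-4443 and miR-4687-3p in 6 each, and miR-4745-5p in 4. The call of miR-4746-3p was lost in 0. Neither call of a lowered member was firm. That of miR-4482-3p was lost in 12 of 22 alternative settings, among them each of the 6 fits that left out an array of DMSO, gefitinib or both drugs, with limma adjusted p from 0.0112 to 0.318. That of miR-4451 was lost in 10 of 21, among them each of the 4 fits that left out an array of DMSO or gefitinib, with limma adjusted p from 0.0158 to 0.361.

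Luteolin plus gefitinib raised 9 members and lowered 3 against DMSO, which is 12 of 109 (11.0%) beside 12.1% of all miRNAs tested, with 6.04% called in each direction over all of them. Since these calls and those of gefitinib use the same DMSO arrays, the values are given side by side and not as an overlap. The count was 3 without DMSO replicate 1, 1 without DMSO replicate 2, 4 without either gefitinib array and 4 without replicate 2 of both drugs.

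miR-4516 reached 490 and 585 with both drugs (0.96 ± 0.15 SE against DMSO, limma adjusted p = 0.0158), and miR-4443 reached 244 and 314 (1.16 ± 0.17, limma adjusted p = 0.0113). miR-4687-3p was at 150 and 206 (1.21 ± 0.19, limma adjusted p = 0.0158). The 2 arrays of both drugs were farther apart than the gefitinib arrays for these miRNAs, but each lay above both DMSO arrays.

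miR-4281, encoded within SNCB, the beta-synuclein gene, was at 133 and 124 with DMSO, 160 and 139 with luteolin, 192 and 185 with gefitinib and 205 and 228 with both drugs. The rise was called with both drugs (0.75 ± 0.14, limma adjusted p = 0.0268) and not with gefitinib alone (0.55 ± 0.14, limma adjusted p = 0.0708). miR-4466, encoded opposite to ARID1B, was at 38.3 and 36.6 with DMSO, 56.8 and 52.8 with gefitinib and 63.4 and 77.5 with both drugs (0.90 ± 0.16 with both drugs, limma adjusted p = 0.0237, and 0.55 ± 0.16 with gefitinib, limma adjusted p = 0.097). For neither miRNA did luteolin plus gefitinib differ from gefitinib at the threshold (limma adjusted p = 0.737 and 0.481). The calls of miR-4281 and miR-4466 with both drugs were each lost in 10 of 22 alternative settings.

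miR-4746-3p and miR-4745-5p were called here too, at 1.10 ± 0.15 and 0.86 ± 0.14 on the log2 scale. miR-4746-3p was at 28 and 32.6 with both drugs, below the gefitinib arrays, but the difference from gefitinib was not called (-0.42 ± 0.15, limma adjusted p = 0.311). miR-4496 and miR-4465 rose by 0.84 and 0.65 on the log2 scale. miR-4651 and miR-4534, at 15.6 and 15.2 and at 15.6 and 18.4 with both drugs, were above DMSO on both arrays without passing the test (limma adjusted p = 0.0929 and 0.169).

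miR-4451 and miR-4710 were not detected on either array of both drugs. miR-4451, at 2.18 and 2.19 with DMSO, was at least 3.16-fold lower with both drugs (limma adjusted p = 0.00116). It was kept through its DMSO, luteolin and gefitinib arrays, of which any 1 treatment would have sufficed. miR-4710 was at 4.24 and 2.27 with DMSO, 3.14 and 1.46 with luteolin and 1.11 with gefitinib on replicate 1 only, and was at least 4.5-fold lower with both drugs than with DMSO (limma adjusted p = 0.0383). This call was lost in 14 of 21 alternative settings, with limma adjusted p from 0.00332 to 0.227, and in every fit that left out an array of DMSO, gefitinib or both drugs. In the other direction, miR-4689 was detected on both arrays of both drugs, at 3.28 and 1.22, at least 2.79-fold above DMSO without passing the test (limma adjusted p = 0.0842). miR-4689 was kept only through arrays with gefitinib and miR-4710 only through those of DMSO and of luteolin, so that the selection favored both differences.

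**Figure D4:**
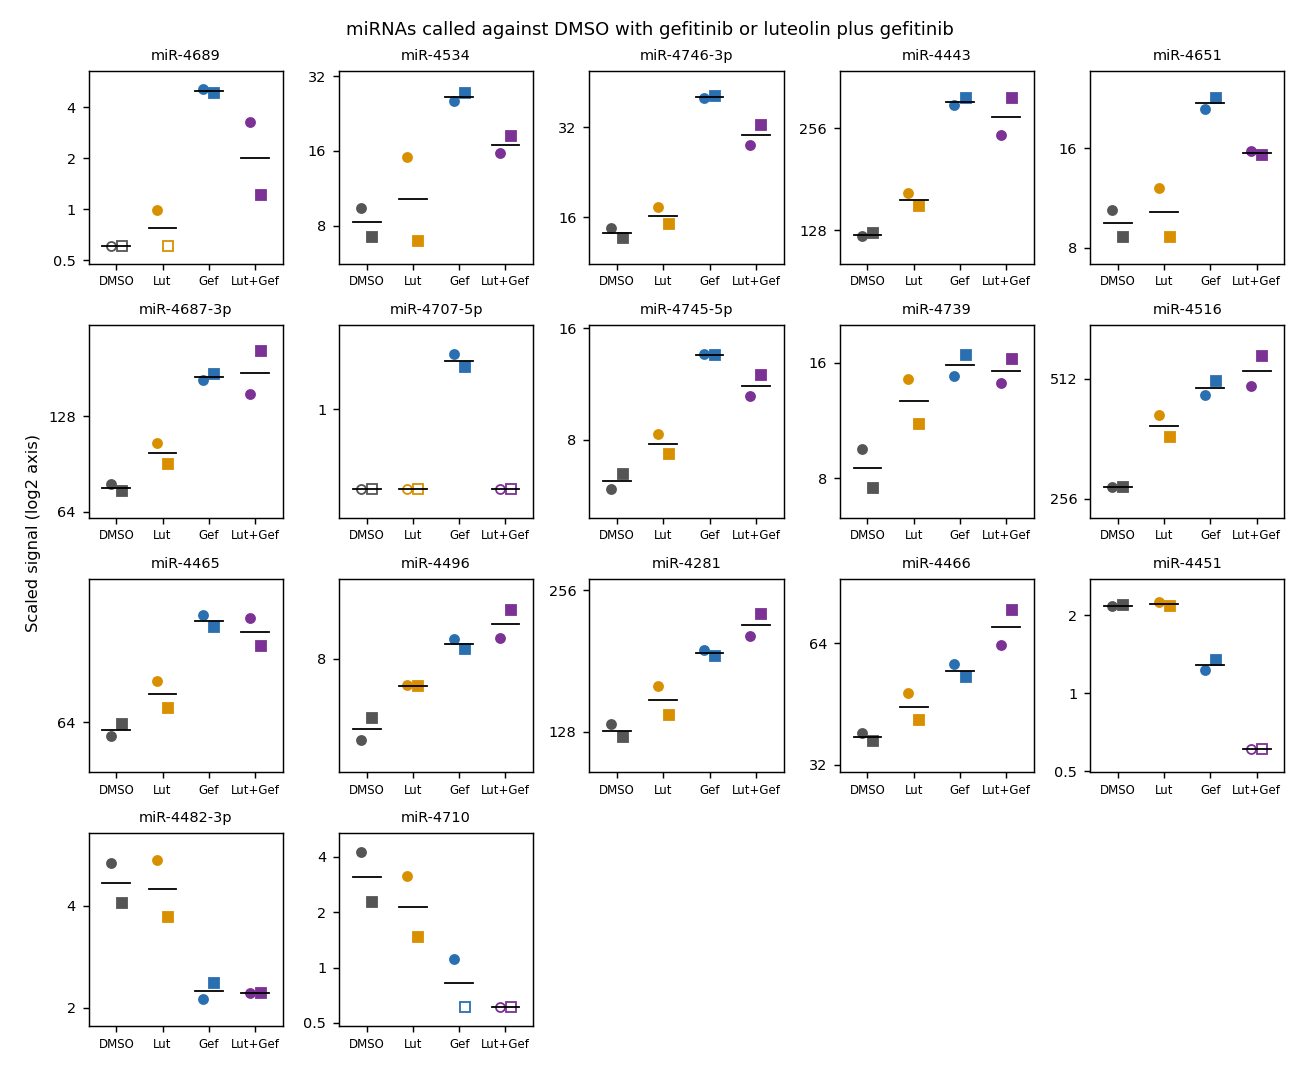
Scaled signal (log2 axis, different for each panel) of the members called against DMSO with gefitinib or with luteolin plus gefitinib, in order of the change with gefitinib. Circles are replicate 1, squares replicate 2, open symbols arrays without detection drawn at the floor of 0.609, and lines the means of the log2 values; the 2 gefitinib arrays stand above the 2 DMSO arrays in every panel but those of miR-4451, miR-4482-3p and miR-4710.

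No member was called with luteolin alone by limma, while 2.08% of all miRNAs tested were. Before adjustment 3 members (beside 8.54% of all miRNAs tested) had a p under 0.05 by limma. By the methods' t-test 3 did, for which the share over all miRNAs is not given here. By limma these were miR-4516, miR-4739 and miR-4448, the last 2 chosen after their values were seen. miR-4516 had a log2 fold change of 0.50 ± 0.15 SE (limma adjusted p = 0.34), and miR-4739, at 14.6 and 11.1 against 9.54 and 7.55, one of 0.58 ± 0.21. miR-4448 was at 1.66 and 1.66 with DMSO and 3.45 and 3.17 with luteolin (1.00 ± 0.33, limma adjusted p = 0.401). In each case both luteolin arrays were above both DMSO arrays. The count depended on single arrays, with 2 members called without luteolin replicate 2 and 1 without either array of both drugs.

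To determine whether the second drug added to the first, the arrays of both drugs were set against those of each single drug. Relative to luteolin, 1 member was called, miR-4451, beside 1.88% of all miRNAs tested. It was at 2.25 and 2.17 with luteolin, at least 3.21-fold above both drugs (limma adjusted p = 0.00219). miR-4710 was at least 3.11-fold lower with both drugs than with luteolin and was not called (limma adjusted p = 0.181). Without either luteolin array or replicate 1 of both drugs 3 members were called, and without replicate 2 of both drugs 2.

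Against gefitinib, 2 members were called, miR-4451 and miR-4707-5p, beside 4.58% of all miRNAs tested. miR-4451 was at least 1.86-fold lower with both drugs than with gefitinib (limma adjusted p = 0.00778). miR-4707-5p was detected only with gefitinib, at 1.41 and 1.30, and was at least 1.96-fold lower with both drugs, a difference that its selection through the gefitinib arrays had built in. With the floor raised to 1, neither was called. Without either luteolin array or replicate 1 of both drugs 4 members were called.

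Other members detected on both gefitinib arrays and on neither array of both drugs were not called in this comparison. They were miR-4659a-3p (1.8 and 2.97 with gefitinib, at least 3.35-fold lower with both drugs), miR-4673 (1.55 and 1.61, at least 2.29-fold), miR-4470 (1.5 and 1.41, at least 2.11-fold), miR-4665-5p (at least 1.88-fold) and miR-4767 (at least 1.76-fold). All 5 were kept only through their gefitinib arrays, so that the selection had built in these losses. Fewer miRNAs of any number were detected on the arrays of both drugs (447 and 395) than on those of gefitinib (481 and 468), and the part of this in the losses was not tested.

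The interaction, the effect of gefitinib with luteolin minus its effect without, was called for the same 2 members, beside 3.33% of all miRNAs tested. It was -1.10 ± 0.18 on the log2 scale for miR-4451 (limma adjusted p = 0.0361) and -1.15 ± 0.17 for miR-4707-5p (limma adjusted p = 0.0293). Both values were set by the floor used for arrays without detection and shrank to -0.38 and -0.44, no longer called, with a floor of 1. Of the fits that left out 1 array, none but that without luteolin replicate 2 kept either call (limma adjusted p = 0.0458 and 0.0434), and there 5 members were called. For the members detected on all 8 arrays, such as miR-4443 (-0.49 ± 0.23, limma adjusted p = 0.578), no interaction was called.

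The change against DMSO differed with base composition among the 79 members detected on all arrays, of which 26 had a G plus C content of at least 70% and 43 a lower one. With gefitinib the median log2 fold change was 0.39 in the G+C-rich members, with 18 of 26 above 0, and -0.30 in the others, with 8 of 43 above 0, beside -0.10 over all miRNAs tested. With both drugs the medians were 0.37 and -0.32, beside -0.16 over all. With luteolin they were 0.11 and -0.21, and these changed sign on leaving out an array (-0.13 to 0.36 and -0.33 to 0.01). Leaving out an array kept the medians at 0.27 to 0.55 and -0.36 to -0.22 with gefitinib, and at 0.25 to 0.59 and -0.38 to -0.19 with both drugs.

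The other miRNAs tested showed a split of the same direction. Among those detected on all arrays, the 27 G+C-rich ones had a median of 0.15 with gefitinib and 0.30 with both drugs, and the 207 others -0.14 and -0.15. Of the G+C-rich members, 6 of 26 were called with gefitinib, all of them higher (miR-4516, miR-4687-3p, miR-4746-3p, miR-4745-5p, miR-4651 and miR-4739), and 4 of 43 of the others (3 higher and 1 lower). Beside these, 2 of the 27 other G+C-rich miRNAs (7.41%) and 35 of all 365 miRNAs detected on all arrays (9.59%) were called. Without scaling the arrays, the gefitinib medians were 0.76 and 0.07 while that of all miRNAs tested moved to 0.26, so that the lower-content members changed sign but stayed below that median, by -0.19. The size of the split also depended on the background and offset, with gefitinib medians of 0.07 and -0.05 after normexp and of 0.11 and -0.09 for log2 of the signal plus 16. No test was made of the difference between the classes, and its cause was not tested. The miRNAs of an array share its labeling and hybridization.

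**Figure D5:**
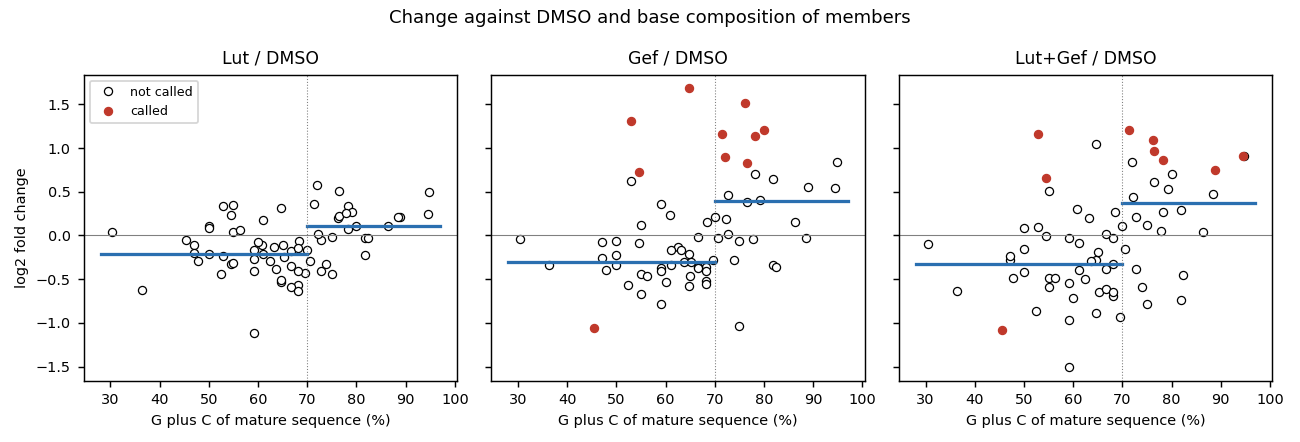
Log2 fold change against DMSO (y axis) and G plus C content of the mature sequence in percent (x axis) for members detected on all 8 arrays, with filled points for members called; blue lines are medians below and from 70% (dotted line). With gefitinib and with both drugs the right-hand median lies above 0 (0.39 and 0.37) and the left-hand one below (-0.30 and -0.32).

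Over all 109 members, the median log2 fold change was -0.10 with luteolin, -0.03 with gefitinib and -0.09 with both drugs, beside -0.10, -0.10 and -0.16 over all miRNAs tested. These medians depended on single arrays. With gefitinib the members' median was 0.19 without DMSO replicate 1 and -0.19 without DMSO replicate 2, beside -0.14 and -0.09 over all miRNAs. With luteolin it was -0.34 without luteolin replicate 1 and 0.29 without luteolin replicate 2, beside -0.09 and 0.00 over all. The 47 members within a gene of the same strand had a median of -0.03 with gefitinib and 7 calls (14.9%). The other 47 with a position, among them those in a gene whose strand was not given, had -0.06 and 6 calls (12.8%). Of all miRNAs tested, 12.1% were called. By the name's arm, 3 of 14 members of the 3p arm, 2 of 22 of the 5p arm and 9 of 73 with no arm given were called with gefitinib, beside 12.1% of all miRNAs tested.

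Both arms of 4 hairpins were among the members. For miR-4787, encoded within DOCK3, the 5p product was at 33.8 and 26.2 with DMSO and 33.5 and 32.5 with gefitinib, while the 3p product was detected on neither DMSO array and on both gefitinib arrays. For miR-4665, the 3p product was at 8.11 and 9.42 with DMSO and 8.37 and 8.72 with gefitinib, while the 5p product was detected on neither DMSO array. For miR-4433, the 3p product was at 4.25 and 1.85 with DMSO and 6.67 and 6.17 with gefitinib (1.19 ± 0.41, limma adjusted p = 0.145), and the 5p product at 1.45 on replicate 1 of DMSO alone and 1.23 and 1.37 with gefitinib. For miR-4701, the 3p product was at 8.82 and 9.63 with DMSO and 5.92 and 5.64 with gefitinib, and the 5p product at 3.66 and 5.12 and at 2.76 and 3.89, neither of them called. Whether the arms of a hairpin differed in their change was not tested.

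Several members share a seed with other miRNAs that were tested. miR-4516 has GGAGAAG in common with miR-5703, and miR-4458 has GAGGUAG, the seed of let-7, in common with 8 tested miRNAs of the let-7 and miR-98 family. miR-4458 itself was near the limit of detection, at 1.62 on replicate 1 of DMSO, 1.48 on replicate 1 of luteolin, 2.69 and 1.30 with gefitinib and 1.45 on replicate 1 of both drugs. miR-4481 and miR-4745-5p, both members, share GAGUGGG. miR-4745-5p was called with gefitinib, and miR-4481, at 5.78 and 6.87 with DMSO and 6.23 and 4.78 with gefitinib, was not (-0.21 ± 0.27, limma adjusted p = 0.732).

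A few members match a longer stretch of a miRNA with a lower number, which matters on an array because probes bind by base pairing. The longest run shared with a tested miRNA that was not a member and was detected on all arrays had a median of 8 bases over 94 members, and 6 members reached at least 12. Besides miR-4317, which matches miR-23b-3p, and miR-4505, which matches miR-1587, these are shown with the shared run in capitals.
miR-4306: UGGAGAGAAAGGCAGUa
miR-185-5p: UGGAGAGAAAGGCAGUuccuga
miR-4324: CCCUGAGACCCUAACcuuaa
miR-125b-5p: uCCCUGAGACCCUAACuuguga
miR-4507: cugggUUGGGCUGGGCUGGG
miR-1587: UUGGGCUGGGCUGGGuuggg
miR-4291: UUCAGCAGGAACAGcu
miR-24-3p: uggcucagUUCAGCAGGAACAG

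Side by side, miR-4306 was at 17.0 and 20.1 with DMSO and 14.4 and 16.6 with gefitinib, and miR-185-5p, which shares 16 bases including the seed, at 13.7 and 18.7 and at 12.9 and 14.2. miR-4324 was at 34.0 and 42.9 with DMSO and 34.8 and 48.7 with luteolin, and miR-125b-5p at 2190 and 2990 and at 2420 and 3240. In both pairs replicate 2 was the higher one in DMSO and in luteolin, against the direction of most members. miR-4291 was at 57.8 and 63.5 with DMSO and 47.4 and 48.4 with gefitinib, and miR-24-3p at 907 and 1130 and at 865 and 887. miR-4507 was at 57.7 and 49.1 with DMSO and 54.2 and 48.0 with gefitinib, while miR-1587 was at 28.8 and 26.6 and at 38.9 and 37.3. None of these was called against DMSO, and whether the probes of a pair bound the same RNA was not tested.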

How the data were processed

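Per the file headers, the authors scanned one-color miRNA arrays and extracted each on its own with Agilent Feature Extraction, and the deposited values used here are the total gene signal, a background-subtracted linear intensity summed over the spots of a miRNA, with a detection flag. The series value table repeated the processed signal and was not used.

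The signal of each array was divided by its 75th percentile over the 365 miRNAs detected on all 8 arrays and multiplied by the geometric mean of these percentiles. Values under 0.609, the median over arrays of the lowest detected signal, were set to it, and log2 was taken. The 480 human miRNAs that both arrays of some treatment detected were fitted by lmFit and eBayes of limma 3.58.1 in R 4.3.3, 4 treatments in 1 model without a replicate block. P-values were two-sided and adjusted by Benjamini-Hochberg over all 480 per comparison, and called means an adjusted p under 0.05. Residual degrees of freedom were 4 and prior ones 1.66. An exact permutation test of 2 against 2 arrays cannot go below p = 0.333 and was not used. P-values set each change against the spread between replicate arrays, pooled over the treatments and moderated over all miRNAs tested. The number of arrays limits the precision, and values set to the floor show no spread. The fit was tested on simulated data.

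Named members were the 12 with the highest mean signal, the largest called changes of miRNAs detected on all arrays compared, those detected in 1 treatment and not in the other, those sharing a hairpin or a seed with another member, the 3 with the largest replicate gap among members detected on all arrays, those at the edge of the rule, and miR-4454 and miR-4485 for their match to other RNAs. The members and lists were chosen with earlier results of these data known. Alternatives changed the scaling, the summary and background of spots, the filter, the floor, the test, the arrays in the fit and the pairing. Sequences and positions came from RefSeq tables of GRCh38.p14 and were joined by name. Tables and plots were made with Python 3.11.15, pandas 2.3.3, NumPy 2.4.6 and matplotlib 3.10.9.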

Additional observations from a re-analysis of the deposited data

Results flagged for a closer look

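The effect of gefitinib was called different with and without luteolin for 2 members, by the interaction term of the limma fit. For miR-4451 the log2 effect of gefitinib with luteolin minus that without was -1.10, and for miR-4707-5p it was -1.15. Neither was detected on the arrays of both drugs, so that the values rest on the floor. miR-4707-5p was kept only through its gefitinib arrays, so that its value was built into the selection. The call was lost in 16 of 19 alternative settings for miR-4451 and in 15 of 19 for miR-4707-5p.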

How the results depend on the processing

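The number of members was 74 when 50% or more of a miRNA's spots had to be well above background, 79 when detection on all 8 arrays was required and 120 when detection on 1 array sufficed. None of the 26 calls of named members reversed under any alternative, and 6 held whichever array was left out. Of these, 5 were calls of miR-4451 and miR-4707-5p that use arrays set to the floor, where values do not vary, and each of the 5 was lost in 3 to 6 of the other settings. The other was miR-4746-3p with gefitinib. With luteolin (0 called), the percentile over all spots and a floor of 1 gave 1 call each, and leaving out an array 0 to 2. With gefitinib (14), testing all miRNAs without a filter gave 4, the methods' t-test 9 and counting the gefitinib arrays as 1 sample 2, and leaving out an array gave 2 to 20. With both drugs (12), no scaling gave 5, the percentile over all spots 19, normexp 19, no filter 1, the methods' t-test 1, the compared groups alone 1 and the gefitinib arrays as 1 sample 4, with 1 to 17 on leaving out an array. At an unadjusted p under 0.05 and more than a 2-fold change, the methods' t-test gave 11 members with gefitinib, 8 with both drugs and 0 with luteolin. The share over all miRNAs tested is not given for these alternatives. Their counts are therefore not read as a result about the members. Both drugs against luteolin (1) gave 6 with quantile normalization, 2 with the percentile over all spots, 2 with the mean processed signal, 3 with a floor of 1, 3 with log2 of the signal plus 16, 0 with miRNAs detected on all 8 arrays, 0 with the methods' t-test and 0 with the groups alone, and 1 to 3 on leaving out an array. Both drugs against gefitinib (2) gave 0 with quantile normalization, the mean processed signal, detection on all 8 arrays, a floor of 1 or log2 of the signal plus 16, 1 with normexp, 7 with the groups alone and 2 to 4 on leaving out an array. The interaction (2) gave 0 with no scaling, the mean processed signal, detection on all 8 arrays, a floor of 1, log2 of the signal plus 16 or the gefitinib arrays as 1 sample, 1 with quantile normalization, 1 with normexp and 0 to 5 on leaving out an array. It could not be fitted with the methods' t-test or the groups alone. The cause of these shifts was not tested, except that requiring detection on all 8 arrays removes miR-4451 and miR-4707-5p from the test.

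The replicate numbers were not taken as pairs, since the correlation of same-numbered deviations ran from -0.135 (DMSO and gefitinib) to 0.908 (DMSO and luteolin) over 365 miRNAs. With the replicate number as a block, 0, 14, 14, 1 and 3 members were called in the comparisons above and 1 for the interaction. With the gefitinib numbers exchanged, an alternative chosen after seeing the data, the block gave 0, 13, 11, 1, 2 and 0. With 2 arrays a treatment, fits without an array assume that the lone array varies like the others. Signals near the floor limit what can be said of the dim members, and members without a sequence are outside the base composition results.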
